A study of Oryza sativa Japonica Group and Oryza sativa Indica Group and Oryza sativa Indica Group x Oryza sativa Japonica Group with 9 samples.

Results

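The F1 hybrid of 2 rice cultivars was set against the level expected if both parental genomes simply added up. Expression was measured by RNA-seq of polyadenylated RNA in shoots of 14-day-old seedlings, in 9 libraries: 3 of C92, a japonica cultivar, 3 of MH63, an indica cultivar known as the restorer line Minghui 63, and 3 of their hybrid. All plants were raised in water at a constant 28 °C, lit for 16 h a day at 100 µmol photons per square metre and second and dark for 8 h, and no group received a treatment. The library titles and the cultivar labels write the cross in opposite orders, so which parent was the mother is unclear. For each locus, the mid-parent was the arithmetic mean of the C92 level and the MH63 level. The comparison was made at the 21447 of 55783 loci that reached an FPKM of at least 1 in at least 3 of the 9 libraries. FPKM counts fragments relative to the length of the transcript and the size of the library, so levels of different loci can be set side by side. Another 11443 loci were listed at 0 in every library.

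Gene expression in a hybrid is called additive when it lies at the mid-parent and non-additive when it departs from it. Each hybrid cell holds a genome of either parent, and a difference in the regulatory sequence next to a gene acts on its own copy alone, which leaves the total at the mean of both parents. A difference in a diffusible regulator acts on both copies and can move the total off that mean. Hybrids between japonica and indica rice are known for vigorous growth, and departures from additivity have long been studied beside it. In the shoot of a rice seedling, most messenger RNA comes from green leaf blades and sheaths, with photosystem, carbon fixation and cell wall genes among the most active.

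The libraries were alike in their totals, with FPKM summing to between 602005 and 623806 per library. Within a group, log2 values correlated at 0.977 to 0.990 across the tested loci, which are not independent replicates. F1 libraries 1 and 2 correlated with the C92 libraries at 0.952 to 0.964, above the 0.929 to 0.935 of F1 library 3. The Rubisco small subunits and activase, markers of green tissue, summed to between 20379 and 24656 FPKM in every library. Of 7 root marker loci, 3 stayed below 1 FPKM everywhere, and the list summed to 7.60 to 9.95 FPKM in C92, 26.6 to 27.6 in MH63 and 16.6 to 18.1 in F1. Markers of seed endosperm summed to at most 3.49 FPKM and those of the shoot meristem to at most 2.06. The part of these differences in the results was not tested. The labels call the replicates biological but do not say which plants went into which, and the p-values therefore reflect only how far these libraries spread. In whole shoots, fewer cells of a type and less RNA per cell cannot be told apart.

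Of the tested loci, 721 were higher and 1196 lower in F1 than the mid-parent, at a Benjamini-Hochberg adjusted p below 0.05 from limma. These 1917 loci were 8.94% of those tested, 3.36% higher and 5.58% lower. The departures were mostly small. The higher loci had a median log2 difference of 0.51 (10th to 90th percentile 0.34 to 1.06) and the lower loci one of -0.61 (-1.05 to -0.40), on the log2(FPKM + 1) scale used for every difference here. Of all called loci, 52.4% differed by less than 1.5-fold. A difference of at least 2-fold was reached by 86 higher loci (0.401% of those tested) and 139 lower loci (0.648%). Over all tested loci, the median difference was 0.01. At an unadjusted p below 0.05, 5897 loci passed.

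These counts changed when single libraries were left out, which also left fewer libraries in a group. The part of that smaller number was not tested. Without F1 library 3, limma called 198 loci higher and 307 lower, and 24.8% of the 1917 calls stood. Dropping F1 library 2 gave 296 and 726, dropping C92 library 2 gave 350 and 564, dropping MH63 library 1 gave 370 and 610, and dropping C92 library 3 gave 408 and 583. Without F1 library 1, 441 loci were higher. A set of 408 loci, 153 higher and 255 lower, was called each time 1 of the 9 libraries was left out. The excess of lower loci, 62.4% of the calls, depended on what was taken as the mid-parent. Against the mean of the parents' log2 levels, which lies below the arithmetic mean wherever the parents differ, 1496 loci were higher and 1103 lower, so that 42.4% were lower. With F1 libraries 1 and 2 both left out, lower loci made up 83.0% of the calls.

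Most departures lay outside the range of both parents. The F1 mean was above both parental means at 668 of the 721 higher loci and below both at 994 of the 1196 lower loci. Of all 21447 tested loci, 6465 had an F1 mean above both and 5191 below both. Every F1 library exceeded every parental library at 516 of the higher loci (71.6%), against 5.30% of all tested loci, and fell below every one at 578 of the lower loci (48.3%), against 3.94% of all tested loci. These shares were set in part by the call itself, since a called locus had to differ from the mid-parent.

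Where the parents themselves differed, most called loci had the higher level in C92. The parents were called apart at 34.1% of all tested loci (4119 with the higher level in C92 and 3194 in MH63), at 292 of the higher and at 678 of the lower loci. Among the higher loci, 206 were more strongly expressed in C92 and 86 in MH63. Among the lower loci, 469 were more strongly expressed in C92, and at 388 of them the F1 mean was below both parental means, with medians over these 469 loci of 22.4 FPKM for C92, 11.8 for MH63 and 10.3 for F1. The 209 lower loci with the higher level in MH63 had medians of 2.93 FPKM for C92, 12.6 for MH63 and 4.23 for F1, and at 121 of them F1 lay between the parents. Among the higher loci, the 206 with the higher level in C92 had medians of 10.1 FPKM for C92, 2.60 for MH63 and 11.3 for F1. The call itself places F1 toward the lower parent in the former sets and toward the higher parent in the latter. The reference genome is not stated, and a lower level in a parent cannot be told apart from reads of that parent matching the reference less well.

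**Figure D1:**
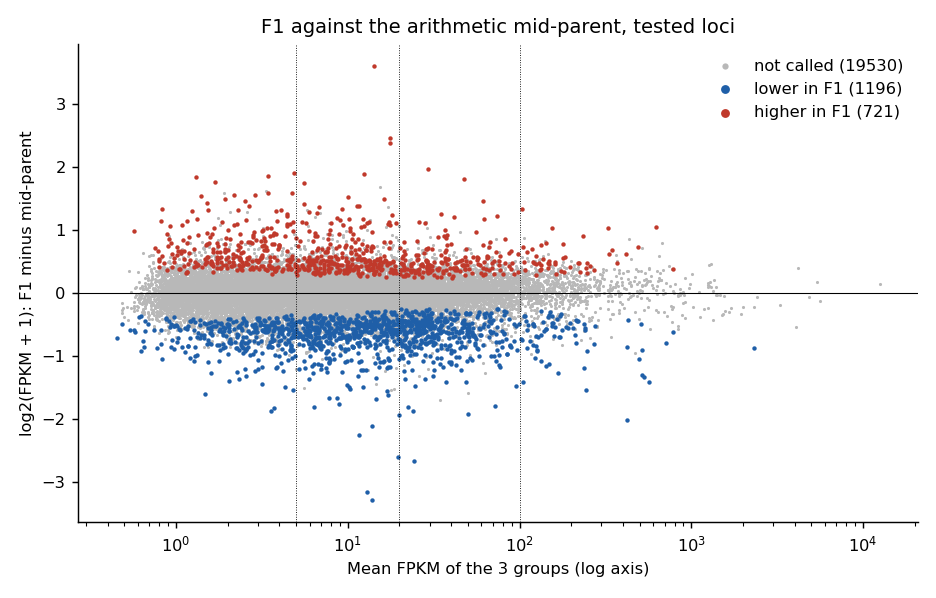
Difference of F1 from the mid-parent, in log2(FPKM + 1), against the mean FPKM of the 3 groups on a log axis, 1 point per tested locus. Red points are the 721 loci called higher, blue points the 1196 called lower and grey points the rest; dotted lines mark 5, 20 and 100 FPKM. Called loci occur at every level, and the lower ones are denser between 5 and 100 FPKM.

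A larger share of loci was called at higher expression levels. Below a mean of 5 FPKM, 7.40% of 7248 loci were called, against 8.71% of 8047 loci at 5 to 20 FPKM, 10.7% of 5215 at 20 to 100 FPKM and 13.1% of 937 at 100 FPKM or more. The standard error of a locus moved with level as well, with a median of 0.132 below 5 FPKM, 0.107 and 0.0982 in the middle tiers and 0.115 at the top, and its part in these shares was not tested. The split between directions differed as well. Lower loci made up 54.5% of the calls below 5 FPKM, where 244 loci were higher and 292 lower, and 69.1% at 20 to 100 FPKM, where 172 were higher and 385 lower. At 100 FPKM or more, 49 were higher and 74 lower. With loci placed by their mid-parent level, which the F1 value does not enter, the shares called were 7.23%, 8.58%, 10.99% and 13.7%. The lowest tier then held 275 higher and 250 lower loci, so that 47.6% of its calls were lower and the direction turned over there. The share called rose over all 4 tiers in 16 of 20 alternative analyses. It did not rise throughout after quantile normalization, without an intensity trend in the variance, or without F1 libraries 1 and 2, and with a minimum mean of 5 FPKM the lowest tier did not exist.

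**Figure D2:**
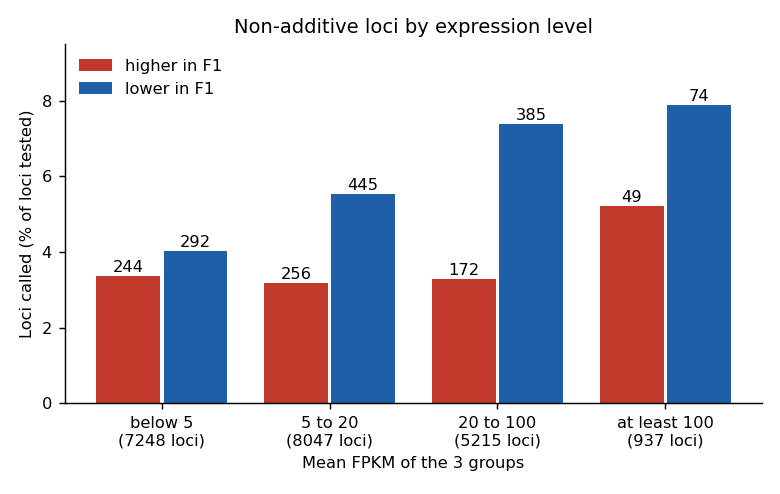
Share of the tested loci called higher (red) or lower (blue) in F1 than the mid-parent, in percent, by mean FPKM of the 3 groups. Numbers above the bars are loci called; both bars are tallest at 100 FPKM or more, and the blue bar exceeds the red one in each tier, which does not hold below 5 FPKM when loci are placed by their mid-parent level.

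As a share of the FPKM sum, which follows transcript number and not RNA mass, the higher loci carried 4.41% in F1 and 2.91% at the mid-parent, and the lower loci 4.45% and 7.30%. Summed over the 721 higher loci, mean FPKM was 20126 in C92, 15639 in MH63 and 26981 in F1. Over the 1196 lower loci it was 49922, 39780 and 27230. The direction of these shares and sums was set in part by the call itself, which chose the loci. All 3 F1 libraries lay on the same side of the mid-parent at each of the 1917 called loci, against 56.3% of all tested loci. That difference was set in part by the call itself. The F1 libraries did not lie equally far from the mid-parent at the lower loci. The median difference there was -0.51 and -0.55 in F1 libraries 1 and 2 and -0.77 in library 3. At the higher loci, it was 0.46, 0.56 and 0.51.

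Calls were spread over the genome. By the chromosome number in the locus name, between 7.61% of loci (chromosome 2) and 10.1% (chromosome 7) were called. In name order, the next tested locus was also called higher for 53 of the 721 higher loci (7.35%), against 3.36% of all tested loci, and also called lower for 118 of the 1196 lower loci (9.87%), against 5.58%. Of the loci with an FPKM of at least 1 in exactly 3 libraries, just inside the filter, 571 were tested and 13 were higher and 50 lower. All 13 were among 18 loci that passed the filter through the 3 F1 libraries alone, and 20 and 29 of the lower ones passed through the C92 or the MH63 libraries alone. Such loci entered only because 1 group was high, so their calls are no support for a direction. The 530 loci with such a level in exactly 2 libraries were not tested, and their median level was 0.704 FPKM against 0.848.

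The deposited values carry locus names without gene names, so individual loci are given here by name alone. Of the 264 higher and 648 lower loci that differed by at least 1.5-fold, those with the largest FPKM difference from the mid-parent were LOC_Os01g10400, LOC_Os07g08150, LOC_Os01g41710 and LOC_Os11g42500. LOC_Os01g10400 measured 940, 899 and 981 FPKM in F1, against 525, 290 and 513 in C92 and 543, 349 and 576 in MH63. Every F1 library exceeded every parental library, and the difference of 1.05 (SE 0.22, limma adjusted p = 0.0217) was close to 2-fold. Its limma adjusted p was 0.0569, 0.0562 and 0.0831 without F1 library 1, 2 or 3, where the difference was 1.05, 1.08 and 1.02. LOC_Os07g08150 measured 583, 390 and 557 FPKM in C92, 343, 306 and 235 in MH63, and 625, 577 and 795 in F1. Its F1 range overlapped that of C92, the parent with the higher level (limma adjusted p = 0.0138 between the parents), and the difference was 0.73 (SE 0.18, adjusted p = 0.0356). That call was lost without C92 library 2 or 3, MH63 library 2 or any F1 library, with adjusted p up to 0.133.

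LOC_Os11g42500 measured 608, 1059 and 865 FPKM in C92, 681, 483 and 601 in MH63, and 349, 259 and 203 in F1. All F1 values were below all parental values, the difference was -1.41 (SE 0.21, limma adjusted p = 0.00923), and it was called in all 20 alternative analyses. LOC_Os01g41710, the most abundant of the 4, measured 2667, 4418 and 3117 FPKM in C92, 1927, 1985 and 2179 in MH63, and 2092, 1369 and 1098 in F1. F1 library 1 lay inside the MH63 range. The difference of -0.87 (SE 0.22, limma adjusted p = 0.044) was lost without C92 library 2 or 3, any MH63 library, or F1 library 2 or 3, with adjusted p up to 0.160. Without a filter on low values, limma adjusted p was 0.0696 at LOC_Os01g10400, 0.0984 at LOC_Os07g08150 and 0.180 at LOC_Os01g41710.

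**Figure D3:**
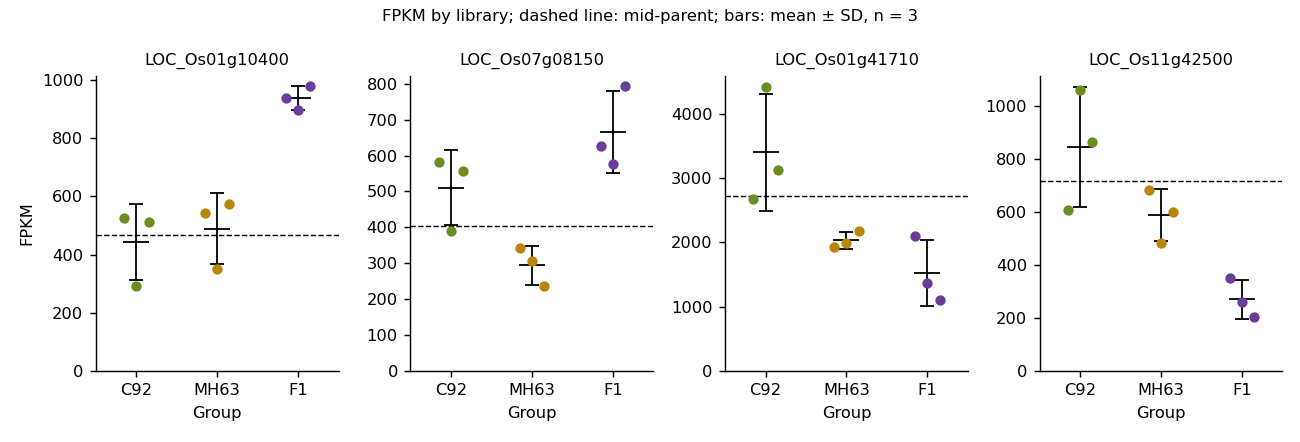
FPKM by library at the 4 loci with the largest FPKM difference from the mid-parent in either direction. Points are libraries, bars the mean ± SD of 3 libraries, and the dashed line the mid-parent. F1 stands apart from both parents at LOC_Os01g10400 and LOC_Os11g42500 and overlaps a parent at the others.

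At least 4-fold differences were found at 3 higher and 7 lower loci, whose names are not printed here. The largest higher one, on chromosome 8, measured 3.46, 2.59 and 1.37 FPKM in C92, 0.440, 0.840 and 6.48 in MH63, and 26.95, 33.3 and 52.7 in F1. Every F1 library was above every parental library there (difference 3.62, SE 0.48, limma adjusted p = 0.00558), and the call stood in all alternatives. Both other higher ones lost their call without F1 library 2 (adjusted p = 0.0529 and 0.0739) or F1 library 3 (0.0717 and 0.0879), and the one on chromosome 9 also without C92 library 3 (0.0504).

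The 7 lower loci were of unlike kinds. At 4 of them, C92 was at or below 1.1 FPKM in every library, MH63 was far above it, and F1 lay between the parents, above every C92 library. On chromosome 5, for example, C92 measured 0.870, 0.850 and 1.1 FPKM, MH63 60.0, 55.0 and 48.1, and F1 3.65, 3.32 and 4.02. That F1 level was far below the mid-parent of 27.7 FPKM (difference -2.62, SE 0.11, limma adjusted p = 2.4e-05). Against the mean of the parents' log2 levels the difference there was -1.15, and those of the others of this kind were -1.04 on chromosome 3, -1.76 on chromosome 8 and -1.68 on chromosome 12, in place of -2.25, -3.16 and -3.30. With a pseudocount of 5 these last were -1.46, -1.91 and -1.94. At the other 3, every F1 library was below every parental library. The most abundant of these, on chromosome 2, measured 598, 636 and 693 FPKM in C92, 544, 381 and 497 in MH63, and 220, 157 and 73.4 in F1 (difference -2.02, SE 0.29, limma adjusted p = 0.00731).

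Known functions were followed through 48 lists of rice loci, whose membership and roles come from general knowledge of rice genes and from no table of this series. Of 472 loci on them, 398 were tested, 15 were higher and 25 lower in F1 (10.1%, against 8.94% of all tested loci), and the median difference was 0.02. Of the 398, 238 had a mean of at least 20 FPKM. Of all tested loci, 10.7% were called at 20 to 100 FPKM and 13.1% at 100 FPKM or more. No member was called in 27 of the lists. Every F1 library lay above every parental library at 12 of the 15 higher members and below at 10 of the 25 lower ones. The same held for 71.6% of all higher and 48.3% of all lower loci, and for 5.30% and 3.94% of all tested ones. Leaving out F1 library 3 ended 27 of the 40 calls, more than any other single library, whose removal ended between 8 (MH63 library 3) and 17 (C92 library 2, C92 library 3 and F1 library 2). In all 9 such fits, 12 members were called. Without a filter on low values, which adjusts over 44340 loci, 23 of the 40 calls were lost. The members are described below by list and chromosome, and each count stands beside 3.36% higher and 5.58% lower over all tested loci.

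**Figure D4:**
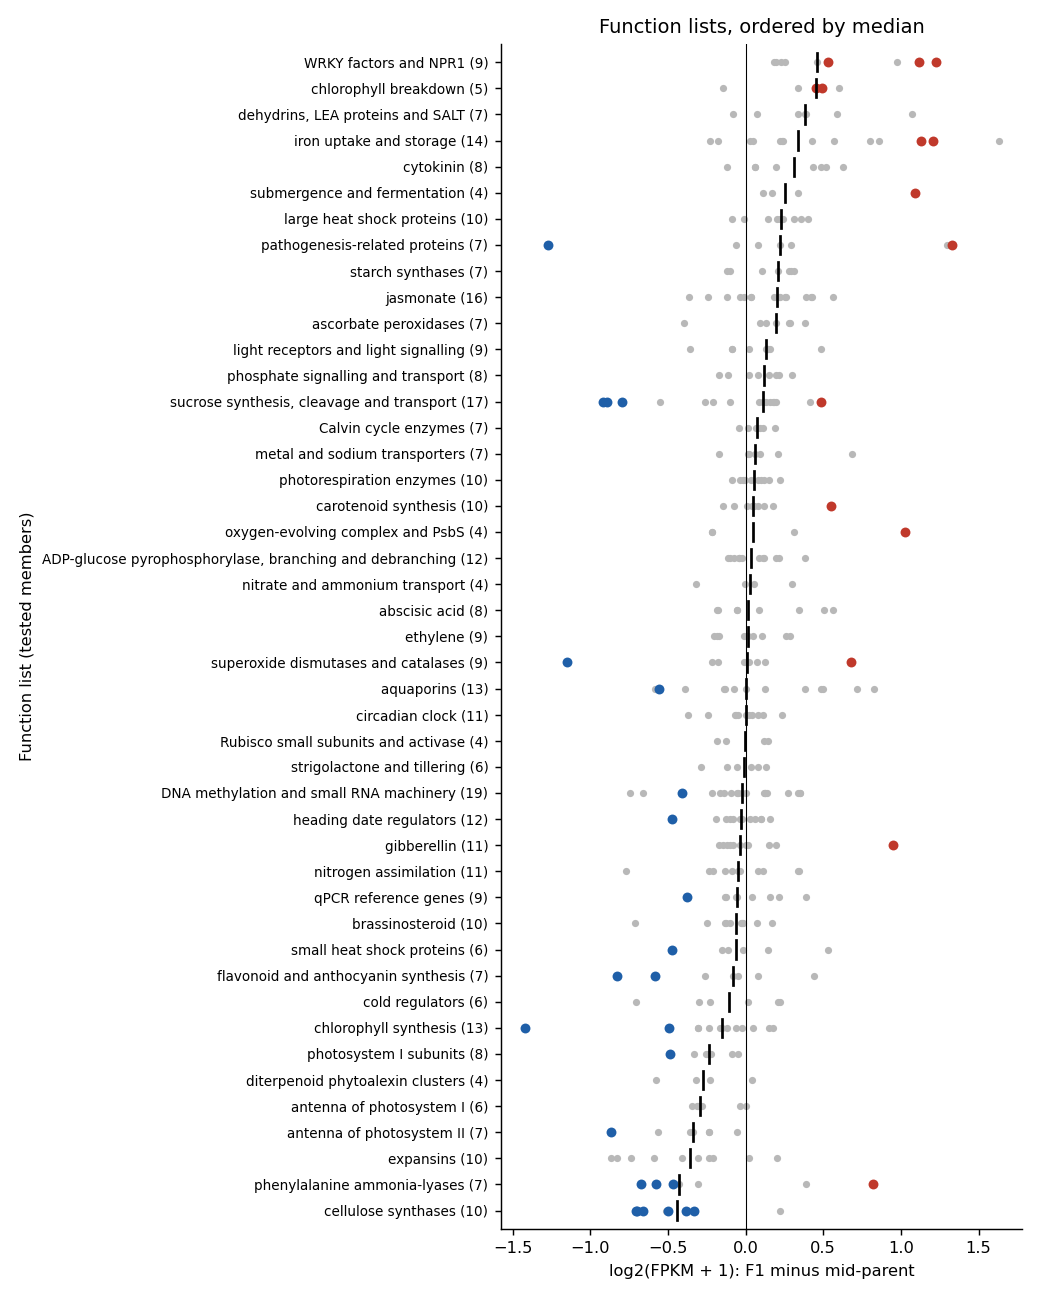
Difference of F1 from the mid-parent, in log2(FPKM + 1), for the tested members of the 45 lists with at least 4 of them, ordered by list median (black bar). Red points are members called higher, blue points called lower and grey points not called; the cellulose synthase list is at the bottom, with 6 of 10 members blue.

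The cellulose synthases were the list with the most called members. These membrane enzymes spin the glucan chains of the cell wall, and separate sets of them build the primary wall of growing cells and the secondary wall of vessels and fibres. Of all tested loci, 5.58% were lower and 3.36% higher. Of 10 tested members of the list, 6 were lower in F1 and 0 higher, 9 of 10 differences were negative, and the median was -0.44. The parents were called apart at 9 of them, and at each of the called members C92 had the higher mean.

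The 3 members listed as secondary-wall enzymes fell furthest. On chromosome 1, FPKM was 73.8, 81.0 and 81.9 in C92, 40.3, 33.2 and 38.1 in MH63, and 37.4, 39.3 and 29.95 in F1. Its F1 values thus spanned the MH63 level and lay far from C92, with a difference of -0.70 (SE 0.10, limma adjusted p = 0.00838). The member on chromosome 9 measured 63.5, 65.3 and 65.9 FPKM in C92, 29.5, 25.7 and 32.1 in MH63, and 32.1, 30.6 and 23.2 in F1, again with F1 over the MH63 range (difference -0.71, SE 0.11, adjusted p = 0.011). Both were called in all 20 alternative analyses. The member on chromosome 10 measured 74.8, 94.3 and 88.2 FPKM in C92, 43.5, 33.4 and 37.9 in MH63, and 41.0, 43.8 and 32.0 in F1 (difference -0.66, SE 0.13, adjusted p = 0.0177, and 0.0651 without F1 library 3).

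The other called members were listed as primary-wall enzymes. On chromosome 3, mean FPKM was 46.7 ± 1.02 for C92, 32.3 ± 3.18 for MH63 and 27.7 ± 2.90 for F1 (SD, n = 3), and F1 overlapped MH63 (difference -0.50, SE 0.09, limma adjusted p = 0.0139, and 0.0546 without F1 library 3). Those on chromosomes 5 and 7 differed by -0.33 and -0.38 (limma adjusted p = 0.0459 and 0.0374). Their calls were lost without C92 library 2 or 3, MH63 library 1, or F1 library 1 or 3 in both cases, without C92 library 1, MH63 library 3 or F1 library 2 on chromosome 5 and without MH63 library 2 on chromosome 7, with adjusted p up to 0.161. The number of cellulose synthases called lower ranged from 4 to 5 when any other single library was left out and was 2 without F1 library 3, where the median was -0.32. In every alternative, 9 members were negative and none was called higher.

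**Figure D5:**
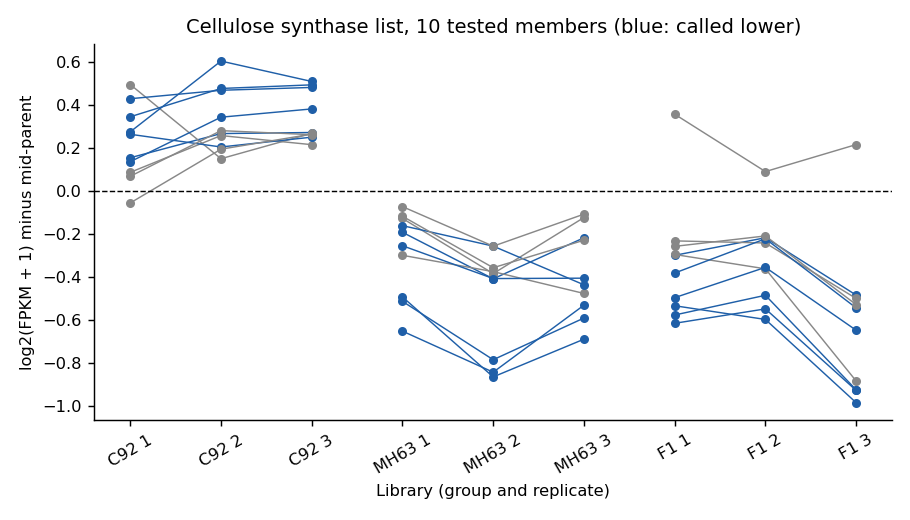
Distance of each library from the mid-parent, in log2(FPKM + 1), for the 10 tested cellulose synthases; each line is a member, blue for the 6 called lower in F1 and grey for the rest. The blue members lie above the mid-parent in C92 and below it in both MH63 and F1, and F1 library 3 is the lowest F1 library for each of them.

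Expansins, proteins that loosen the wall so that cells can enlarge, had 0 of 10 members called, with 8 negative differences and a median of -0.36. The lowest, on chromosome 2, differed by -0.87 (limma adjusted p = 0.102), and 5 members had an unadjusted p below 0.05. Leaving out C92 library 1, MH63 library 3 or F1 library 1 gave 1 call in each case.

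Phenylalanine ammonia-lyases open the phenylpropanoid pathway to lignin and flavonoids. Of 7 tested, 3 were lower and 1 higher, against 5.58% and 3.36% of all tested loci. The member on chromosome 12 was almost absent in MH63, with 0.0700, 0.0200 and 0.0200 FPKM, while C92 measured 111, 98.9 and 112 and F1 93.6, 110 and 83.7. F1 thus reached nearly the full C92 level in place of the mid-parent of 53.6 FPKM (difference 0.82, SE 0.11, limma adjusted p = 0.00519), and the difference was 3.18 against the mean of the parents' log2 levels. The lower member on chromosome 2 measured 37.2, 33.6 and 40.6 FPKM in C92, 19.2, 19.8 and 25.3 in MH63, and 20.7, 18.1 and 15.2 in F1, close to MH63 (difference -0.68, SE 0.12, adjusted p = 0.0153, and 0.0598 without F1 library 3). Those on chromosomes 4 and 5 differed by -0.47 and -0.58, and both calls were lost without any C92 library or any F1 library, the first also without MH63 library 1 and the second without MH63 library 3, with limma adjusted p up to 0.159. Only the higher call was left without F1 library 3.

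Downstream of them, the flavonoid and anthocyanin list had 2 of 7 members lower. The member listed as a chalcone isomerase, on chromosome 3, measured 252, 406 and 326 FPKM in C92, 202, 196 and 245 in MH63, and 191, 192 and 155 in F1. F1 lay just below MH63 (difference -0.58, limma adjusted p = 0.0459), and this call stood only in the fit without C92 library 1 among those that left out a library, with adjusted p up to 0.168. The member listed as a flavone synthase, on chromosome 4, differed by -0.83 (SE 0.18, adjusted p = 0.0238), a call lost without C92 library 2 or 3 or F1 library 1 or 3, with adjusted p up to 0.0972.

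Light-harvesting lists lay below the mid-parent with few calls. Antenna proteins bind chlorophyll and pass the absorbed light to the photosystems. All 7 tested members of the photosystem II antenna were below the mid-parent, with a median of -0.34, and 1 was called lower. The called member is LOC_Os01g41710, described above, so both passages give the same call. The list summed to 10674, 16566 and 12646 FPKM in C92, 12591, 13361 and 11827 in MH63, and 10654, 9819 and 9545 in F1. Each F1 library was thus below every parental library, library 1 by a small margin. This order rested on LOC_Os01g41710, and without its FPKM the lowest sum was that of C92 library 1. No member was called without C92 library 2 or 3, any MH63 library, or F1 library 2 or 3, and 2 were called without C92 library 1 or F1 library 1. After quantile normalization, 6 of 7 were negative and the median was -0.18. C92 library 2 had the highest sum, and without it 6 of 7 were negative.

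Photosystem I passes electrons on to ferredoxin. Its subunits had 1 of 8 lower and a median of -0.24, with all 8 negative, although 7 of 8 were after quantile normalization and without F1 libraries 1 and 2, and its antenna had 0 of 6 called, 5 of 6 negative and a median of -0.30. The called subunit, on chromosome 3, measured 479, 675 and 613 FPKM in C92, 539, 529 and 542 in MH63, and 410, 379 and 406 in F1. Every F1 library was below every parental library (difference -0.49, SE 0.11, limma adjusted p = 0.0298), but the call was lost without C92 library 3, MH63 library 1 or 2, or any F1 library, with adjusted p up to 0.0876. An opposite call came from the list of the oxygen-evolving complex and PsbS, where 1 of 4 tested members was called. Differences there were positive at 2 and negative at 2, with a median of 0.05. A PsbS locus on chromosome 1, also listed, was not called. The called member, on chromosome 4, is listed as a PsbS protein, which protects photosystem II from excess light. It measured 288, 264 and 350 FPKM in C92, 270, 187 and 110 in MH63, and 490, 471 and 498 in F1. That F1 level was above every parental library (difference 1.03, SE 0.23, adjusted p = 0.0307), and the call was lost without C92 library 1 or 2 or any F1 library, with adjusted p up to 0.102.

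The carbon fixation lists had no called member. Rubisco small subunits and activase had 0 of 4 members called and a median of -0.01, the Calvin cycle 0 of 7 and 0.08, and photorespiration 0 of 10 and 0.05.

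The chlorophyll lists held few calls, lower ones in synthesis and higher ones in breakdown. Of all tested loci, 5.58% were lower and 3.36% higher, and at 20 to 100 FPKM 7.38% and 3.30%. Of 13 tested synthesis members, 2 were lower, 10 of 13 differences were negative and the median was -0.16. The larger change was at the member listed as a protochlorophyllide reductase, the enzyme that needs light to make chlorophyllide, on chromosome 4. It measured 110, 217 and 132 FPKM in C92, 119, 112 and 102 in MH63, and 64.3, 55.1 and 29.9 in F1. All F1 values were below all parental values, with a difference of -1.42 (SE 0.26, limma adjusted p = 0.0156), and the call stood in all alternatives. The other, on chromosome 10, is listed as the glutamyl-tRNA reductase that starts tetrapyrrole synthesis (difference -0.49, adjusted p = 0.0481) and was called in no fit that left out a library other than F1 library 1.

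Of 5 tested breakdown members, 2 were higher, 4 differences were positive and the median was 0.45. On chromosome 3, a member listed as pheophorbide a oxygenase, which opens the chlorophyll ring, measured 39.1, 31.7 and 37.0 FPKM in C92, 50.5, 47.6 and 42.3 in MH63, and 51.4, 60.5 and 58.7 in F1. Each F1 library was above each parental one (difference 0.45, SE 0.09, limma adjusted p = 0.0231), and the call was lost without F1 library 2 or 3 (up to 0.0871). The member on chromosome 6 differed by 0.49 (adjusted p = 0.036, up to 0.109), and its call was lost without C92 library 2 or 3, MH63 library 2 or 3, or F1 library 2 or 3. No member was called without F1 library 2 or without F1 library 3.

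Among 10 carotenoid genes, 1 was higher. A member listed as a phytoene synthase, the entry enzyme of the pathway, on chromosome 9, measured 10.7, 11.6 and 10.4 FPKM in C92, 9.91, 9.37 and 11.4 in MH63, and 17.8, 16.1 and 13.9 in F1. F1 stood above both parents, which did not stand apart (difference 0.55, SE 0.10, limma adjusted p = 0.0138, called in all fits that left out 1 library).

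The list of defence regulators held 3 higher calls. WRKY factors bind the W-box of defence genes, and NPR1 relays the salicylic acid signal. All 9 tested members had positive differences, the median was 0.46, and 3 were called higher, against 3.36% of all tested loci. Both calls on chromosome 9 came from loci with adjoining names. The first measured 1.43, 1.34 and 1.31 FPKM in C92, 3.23, 3.28 and 5.29 in MH63, and 6.36, 5.08 and 12.4 in F1, with F1 library 2 inside the MH63 range (difference 1.23, SE 0.24, limma adjusted p = 0.018, called in all fits that left out 1 library). The second measured 3.73, 5.25 and 4.89 FPKM in C92, 9.27, 6.05 and 3.71 in MH63, and 8.29, 16.3 and 14.9 in F1 (difference 1.12, SE 0.26, adjusted p = 0.0333), a call lost without any C92 library, MH63 library 2, or F1 library 2 or 3, with adjusted p up to 0.126.

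The other, listed as NPR1, on chromosome 1, had a mean of 6.03 ± 0.837 FPKM in F1, against 3.30 ± 0.131 for C92 and 4.37 ± 0.105 for MH63 (SD, n = 3), a small but separated rise (difference 0.53, SE 0.09, limma adjusted p = 0.0135, and 0.0563 without F1 library 3). The 6 members not called varied widely between libraries of a group. A member on chromosome 5 measured 51.0, 13.4 and 14.8 FPKM in C92, 37.0, 28.3 and 69.2 in MH63, and 79.8, 51.2 and 62.5 in F1, with C92 library 1 far above the other C92 libraries. Without F1 library 1, 6 of 9 differences were positive, without MH63 library 1, 7 of 9, and without F1 libraries 1 and 2, 8 of 9. Only 1 member was called without F1 library 3.

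Pathogenesis-related proteins, the secreted or cytosolic products of defence, had 1 member higher and 1 lower of 7. The lower one, on chromosome 3, measured 8.08, 9.29 and 8.67 FPKM in C92, 6.95, 6.30 and 8.84 in MH63, and 2.97, 2.80 and 2.42 in F1 (difference -1.27, SE 0.11, limma adjusted p = 0.00124). Every F1 library was below every parental library, and the call stood in all alternatives, with a difference of -0.75 at a pseudocount of 5. The other, listed as a thaumatin-like protein on chromosome 12, measured 0.520, 0.290 and 0.200 FPKM in C92, was listed at 0 in MH63 libraries 1 and 3 with 0.320 in library 2, and measured 1.95, 2.34 and 1.88 in F1. It passed the filter on low values through the F1 libraries alone, so its higher call is counted but read no further. Of the members not called, 3 on chromosome 12 were dominated by MH63 library 2, for example with 0.600, 174 and 2.02 FPKM in the MH63 libraries.

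Both ferritins on the iron list were higher in F1. Ferritins hold iron in the plastid, and the pathway list also covers chelator synthesis and uptake at the root. Of 14 tested members, 2 were higher, against 3.36% of all tested loci, 12 differences were positive and the median was 0.34. Both called members are listed as ferritins, on chromosomes 11 and 12, whose ends are near-identical copies, so reads may be split between them. The first measured 38.6, 29.6 and 38.5 FPKM in C92, 14.2, 22.7 and 29.5 in MH63, and 68.1, 80.6 and 53.9 in F1, and the second had a mean of 41.6 ± 12.4 FPKM in F1, against 21.9 ± 1.99 for C92 and 14.7 ± 4.92 for MH63 (SD, n = 3). Every F1 library was above every parental library at both, with differences of 1.21 (SE 0.21) and 1.13 (SE 0.23) and limma adjusted p of 0.0141 and 0.0198. The second call was lost without C92 library 2 or F1 library 2, with adjusted p up to 0.0617.

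Both nicotianamine synthase members on chromosome 3, makers of an iron chelator, were not called at 0.80 and 0.86. C92 library 3 measured 119 and 77.8 FPKM there, against 311 to 534 in the other C92 libraries and 528 to 968 in F1. Without C92 library 3, 4 members of the list were called higher, and without C92 library 2 or F1 library 2, 1.

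Sugar metabolism held calls in both directions. The list covers the synthesis of sucrose, its cleavage and its export, and 1 member was higher and 3 lower of 17, with a median of 0.11. A member on chromosome 3 is listed as a sucrose synthase, which splits sucrose for use in sink tissue. It measured 326, 333 and 275 FPKM in C92, 266, 238 and 314 in MH63, and 179, 168 and 119 in F1. A sugar exporter of the SWEET family on chromosome 12 measured 79.1, 82.5 and 82.1 FPKM in C92, 58.4, 48.8 and 58.4 in MH63, and 35, 42.8 and 31.7 in F1. At both, every F1 library was below every parental library, at -0.92 (SE 0.15) and -0.89 (SE 0.10) with limma adjusted p of 0.0108 and 0.00357, and both calls stood in all alternatives. The other sucrose synthases on the list, including another on chromosome 3, were not called.

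Another SWEET exporter on chromosome 8 differed by -0.80 (SE 0.21, limma adjusted p = 0.0468) but was called only without F1 library 1 among the fits that left out a library, and the difference was -0.48 without F1 library 3. The higher member, on chromosome 11, is listed as a sucrose-phosphate synthase, which makes sucrose in source leaves. It measured 65.8, 52.5 and 61.1 FPKM in C92, 48.6, 47.3 and 51.6 in MH63, and 72.2, 78.6 and 79.4 in F1 (difference 0.49, SE 0.08, limma adjusted p = 0.0131, and 0.054 without F1 library 3). Starch synthases had 0 of 7 members called, and the list of ADP-glucose pyrophosphorylase with branching and debranching enzymes 0 of 12.

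Among enzymes that remove reactive oxygen, 0 of 7 ascorbate peroxidases were called. Of 9 tested superoxide dismutases and catalases, 1 was higher and 1 lower, both of them catalases. In that list 5 differences were positive and 4 negative, with a median of 0.01. The remaining catalase and the superoxide dismutases were not called. The catalase on chromosome 3 measured 391, 326 and 417 FPKM in C92, 181, 193 and 211 in MH63, and 434, 435 and 506 in F1, above every parental library (difference 0.68, SE 0.11, limma adjusted p = 0.00993), and was called in all alternatives. The one on chromosome 2 measured 45.8, 102 and 76.1 FPKM in C92, 77.7, 98.7 and 165 in MH63, and 40.2, 41.0 and 38.2 in F1, below every parental library (difference -1.15, SE 0.27, adjusted p = 0.0332). That call was lost without C92 library 2 or 3, MH63 library 2 or any F1 library, with adjusted p up to 0.111.

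Hormone and timing lists gave few calls. Of 11 gibberellin genes, 1 was higher, a member on chromosome 5 listed as an enzyme that inactivates gibberellin. Its mean was 9.89 ± 1.90 FPKM in F1, against 3.62 ± 1.49 for C92 and 5.75 ± 0.737 for MH63 (SD, n = 3), with every F1 library above every parental one (difference 0.95, SE 0.20, limma adjusted p = 0.0247, up to 0.0741 and lost without any F1 library). Cytokinin genes had 0 of 8 called, with 7 positive differences and a median of 0.31. Brassinosteroid (10 tested), strigolactone and tillering (6), ethylene (9), jasmonate (16) and abscisic acid (8) genes had none called, nor did the circadian clock (11) and the light receptors with light signalling (9). Of 12 heading date regulators, 1 on chromosome 7 was lower (difference -0.47, SE 0.12, adjusted p = 0.0413), and its call was lost without C92 library 1 or 3, any MH63 library, or F1 library 2 or 3, with adjusted p up to 0.153.

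Stress lists were similar. Of 4 submergence and fermentation genes, 1 on chromosome 9 was higher, with 2.4, 3.15 and 4.24 FPKM in C92, 1.90, 2.33 and 3.43 in MH63, and 5.39, 10.3 and 6.68 in F1. F1 did not overlap the parents (difference 1.09, SE 0.21, limma adjusted p = 0.0178), and the call was lost without F1 library 2 or 3, with adjusted p up to 0.0608. A small heat shock protein on chromosome 1, of 6 tested, was lower (difference -0.48, SE 0.10, adjusted p = 0.0272), lost without C92 library 2 or 3, MH63 library 1, or F1 library 1 or 3 (up to 0.1001). Large heat shock proteins (10), dehydrins with LEA proteins (7) and cold regulators (6) had 0 called.

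Of 13 aquaporins, the water channels of membranes, 1 on chromosome 4 was lower, with 298, 303 and 273 FPKM in C92, 185, 158 and 162 in MH63, and 168, 183 and 121 in F1. Its F1 values lay at the MH63 level (difference -0.56, SE 0.13, limma adjusted p = 0.0322), and the call was lost without any C92 library, MH63 library 1, or F1 library 1 or 3, with adjusted p up to 0.0769. Lists of nitrogen assimilation (11), nitrate and ammonium transport (4), phosphate (8) and metal and sodium transport (7) had 0 called. In the list of DNA methylation and small RNA machinery, 1 of 19 was lower. This member, listed as a de novo DNA methyltransferase on chromosome 3, measured 13.1, 12.6 and 12.8 FPKM in C92, 19.1, 19.7 and 23.3 in MH63, and 12.2, 13.5 and 11.4 in F1. F1 thus stood at the level of C92, the lower parent (difference -0.41, SE 0.09, adjusted p = 0.0223, lost without F1 library 1 or 3 with up to 0.0887). Of 9 loci used as reference genes in quantitative PCR, 1 on chromosome 3, listed as an actin, was lower by a small amount (difference -0.38, SE 0.10, adjusted p = 0.0468), lost without any C92 library, MH63 library 1 or 2, or F1 library 1 or 3 (up to 0.166). The median of that list was -0.06.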

How the data were processed

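Shoot RNA of C92, MH63 and their F1 was measured in 3 libraries each. Per the labels' protocols, column-purified RNA was treated with DNase, and cDNA was primed with random hexamers and nebulized. Strand is not stated, so values of overlapping genes are uncertain. HISAT2 2.0.5 was the aligner, per the submitters' processing notes; build, annotation and quantifier: not given in the sources used here. Each deposited file gives 1 FPKM value per locus, as made by the authors. Read totals are not given, so the depth is unknown and no counting interval is printed.

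Loci reaching an FPKM of 1 in 3 or more libraries were tested on log2(FPKM + 1) with limma 3.58.1 in R 4.3.3, all 9 libraries in 1 fit with group means, an intensity trend and no covariate. F1 was compared with the arithmetic mean of both fitted parental levels, taken back to log2, with the error by the delta method, two-sided, and Benjamini-Hochberg adjustment over 21447 loci. In simulated data with 200 changed loci among 21447, this comparison recovered 93% of 2-fold and 54% of 1.5-fold changes, and 8 of 155 calls were unchanged loci. The simulated noise was normal, with the fitted spread of each locus, and independent between loci and libraries. Shifts shared by many loci of a library were not simulated, so these shares may not hold for the real libraries. Fold changes on this scale understate those of low loci. The alternatives were other pseudocounts, filters, scalings and mid-parents, no trend, the replicate block and left-out libraries.

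The loci and lists were chosen with earlier results of these data known. The printed loci are the 2 higher and 2 lower with the largest FPKM difference from the mid-parent, among called loci that differed by at least 1.5-fold with every F1 library on the same side of it. The 487 list loci were written from general knowledge. The gene table used (RefSeq, ASM3414082v1) holds 0 of the locus names, so lists were checked by place alone. For 274 loci the symbol meant is found at about the same relative position, and for 198 it is not listed. Another 11 were left out as placed elsewhere and 4 as absent from the deposited loci. The tolerance, 0.06 of the chromosome length after removing each chromosome's median shift, was widened after too many loci failed a narrower one. No sequences are printed, because no sequence table was used here. Protein data were not analysed here.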

Additional observations from a re-analysis of the deposited data

How the results depend on the processing

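Of the 80 values for the 4 printed loci under 20 alternatives, none changed sign, 57 kept and 23 lost their call. Of the 25 list counts above 0, taken under 20 alternatives, 358 of 500 values stayed within 1.5 times and 142 moved further, and of 1420 values of the other 71 counts, 29 rose from 0. The number of loci higher was 367 with no filter and 1496 against the log-scale mid-parent, and 191 without F1 replicates 1 and 2. The number lower was 545 with no filter. The 2-fold threshold was passed by 131 loci upward and 249 downward with a pseudocount of 0.1, 22 and 48 with a pseudocount of 5, 48 higher with no filter, 46 higher with a mean FPKM of at least 5, and 314 higher and 91 lower against the log-scale mid-parent. Without F1 replicates 1 and 2, 404 were lower by 2-fold. The median over all tested loci, 0.0107 as reported, was 0.0353 against the log-scale mid-parent, -0.0074 after quantile normalization, -0.0182 after median-ratio scaling and -0.0079 without F1 replicates 1 and 2. With the replicate number as a block, 470 loci were higher and 846 lower. Deviations of same-numbered libraries from their group means correlated at -0.432 to 0.343, so the numbers were not taken to pair libraries. Leaving out each replicate in turn gave 198 to 637 loci higher, 307 to 1190 lower, 49 to 95 higher and 74 to 183 lower by at least 2-fold, and medians of 0.0033 to 0.019. Depth is unknown, so departures at low FPKM carry an unquantified counting error, and a locus that missed the threshold is not shown to be additive.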
